A study of Mus musculus with 81 samples.

Results

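CA1 pyramidal neurons (CA1 PNs) were compared with dentate granule cells (DGCs) of the same trisomic mice. The members were 10 of the 81 libraries of the series, namely the CA1 and the DG library of each of 5 Ts65Dn (Ts) mice born to dams on the choline-normal diet (ChN), and they were chosen from the genotype, diet, cell type and mouse number in the labels. The Ts65Dn mouse carries a small extra chromosome with segments of mouse chromosomes 16 and 17, and so holds an additional copy of the genes of these segments in every cell that keeps it. It is a model of Down syndrome and of early Alzheimer's disease pathology, although the chromosome 17 segment is not orthologous to human chromosome 21. The mice were males of about 6 months (MO) from trisomic females bred to hybrid males of the C57Bl/6J Eicher and C3H/HeSnJ backgrounds. Their dams ate 1.1 g/kg choline chloride from mating to weaning, and all offspring ate this control diet afterwards. Sections of the rostral hippocampus were Nissl stained, and groups of densely packed neurons of both layers were cut out by laser capture microdissection (LCM), so that each library is a pool of neurons of 1 mouse with whatever glial and interneuron material lay between them. The DG library of 1 more ChN Ts mouse (17-192) has no CA1 library and stayed out of the paired test. The same contrast was also taken in 6 disomic (2N) ChN mice and in 9 Ts mice whose dams ate the supplemented diet (ChP, 5.0 g/kg choline chloride).

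CA1 PNs and DGCs are the output and the input neurons of the hippocampal trisynaptic circuit. DGCs receive the perforant path from the entorhinal cortex, fire sparsely and send mossy fibers to CA3, and the dentate gyrus is a site of adult neurogenesis. CA1 PNs receive the Schaffer collaterals of CA3 and direct entorhinal input, carry out NMDA receptor dependent plasticity and project out of the hippocampus, and they are vulnerable in Alzheimer's disease and after ischemia. Both use glutamate, so a comparison of their transcripts sets 2 excitatory cell types of 1 animal against each other. The question asked here was which genes, receptor families and triplicated genes differ between these populations in trisomic animals.

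Expected counts summed to 943299 to 1657389 in the CA1 libraries (median 1156470) and to 837456 to 1671295 in the DG libraries (median 1210952), and 15478 to 16604 and 15985 to 17032 genes had a count. Levels below are CPM, counts set against the size of their library scaled by the trimmed mean of M-values (TMM), differences are log2 fold changes (LFC) that are positive where CA1 PNs were higher, and ± is the SD over 5 mice. Values of 5 libraries are given in the order of mice 16-357, 16-490, 17-153, 17-157 and 17-173. In pooled cells, fewer cells of a type and less RNA per cell cannot be told apart. The CA1 library of mouse 16-357 stood apart from the other 4 CA1 libraries. Its summed CPM of 8 CA1 markers was 663 against 1636 to 1983 in the other 4 CA1 libraries, whereas its summed CPM of 7 CA2 markers was 1573 against 99.7 to 139, of 7 CA3 markers 420.5 against 65.5 to 98.6, and of 10 dentate markers 223.5 against 25.7 to 41.2. In 909 of 14377 genes (6.32%) it lay apart from the other 4 CA1 values by more than 0.71 of the range of the 5 (Dixon's 95% critical value), against 100 to 167 genes for each other CA1 library. Named genes whose call changed without this mouse are given with and without it. For gene lists this is done only in part, so a list given without such a count can also have changed. The part of CA2, CA3 or dentate material in these results was not tested.

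Defining markers followed the labels. Wfs1, which encodes the endoplasmic reticulum protein wolframin and marks CA1 PNs (ENSMUSG00000039474, chromosome 5, 37106176 to 37153872, minus strand, GRCm39), was at 142, 444, 369.8, 377 and 669 CPM in CA1 PNs and at 15.1, 16.3, 15.3, 19.3 and 19.4 CPM in DGCs (LFC 4.42, SE 0.23, adjusted p = 3.48e-07, edgeR quasi-likelihood test with Benjamini-Hochberg adjustment, as for every adjusted p below unless another tool is named). Fibcd1, an acetyl-group recognition receptor of the same neurons (chromosome 2, 31702948 to 31736233), was at 171, 477, 455, 379 and 391 CPM in CA1 PNs and at 14.4, 12.2, 17.7, 12.1 and 12.6 CPM in DGCs (LFC 4.70, SE 0.20, adjusted p = 3.64e-10). The groups did not overlap for either gene, and the CA1 library of mouse 16-357 was the lowest of its group for both.

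Prox1, the homeobox factor that sets and keeps granule cell identity (ENSMUSG00000010175, chromosome 1, 189850232 to 189904637, minus strand), was at 5.79, 5.62, 3.58, 4.29 and 4.49 CPM in CA1 PNs and at 751, 788, 714, 770.1 and 828 CPM in DGCs (LFC -7.29, SE 0.14, adjusted p = 6.17e-27). Dsp, which encodes the desmosomal protein desmoplakin (chromosome 13, 38335230 to 38382553), had no count in any CA1 library and was at 658, 727, 581, 543 and 482 CPM in DGCs, at least 1191-fold higher in DGCs when CA1 PNs were set to the limit that a count of 0 allows (3 counts over the 5 libraries). All 8 CA1 markers were called higher in CA1 PNs and 9 of 10 dentate markers higher in DGCs. The tenth, Il16, was at 179.6, 8.11, 10.7, 8.57 and 4.49 CPM in CA1 PNs and at 109, 106, 96.4, 78 and 81 CPM in DGCs (LFC -2.10, adjusted p = 0.188), and was called without mouse 16-357 (LFC -3.51) and by DESeq2 with all 5 mice (LFC -2.88, adjusted p = 0.00113).

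**Figure D1:**
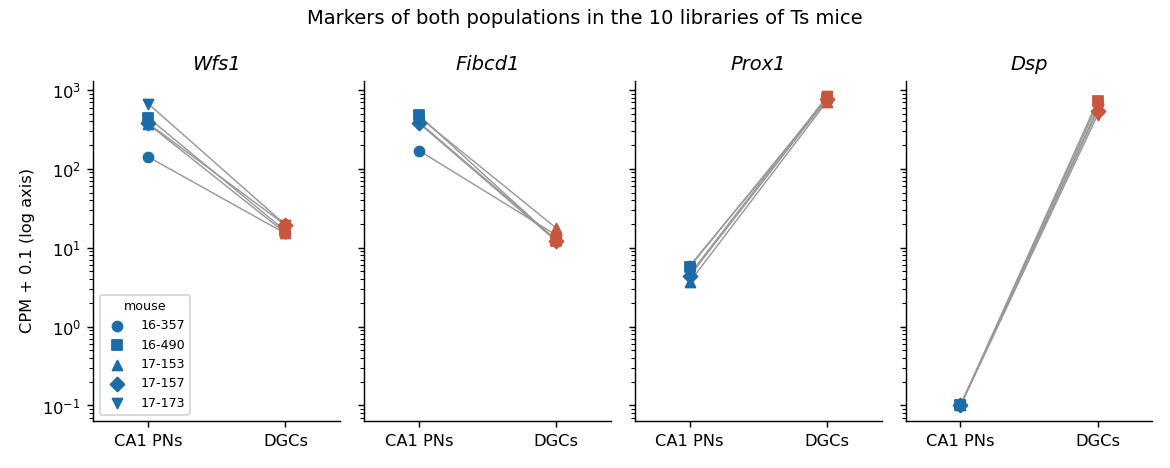
CPM of Wfs1, Fibcd1, Prox1 and Dsp in each library (log axis, 0.1 added so that 0 can be drawn), CA1 PNs on the left of each panel and DGCs on the right. Symbols are mice, and lines join the libraries of 1 mouse. Wfs1 and Fibcd1 fell and Prox1 and Dsp rose from CA1 PNs to DGCs in all 5 mice, with the circle of mouse 16-357 lowest for Wfs1 and Fibcd1 in CA1 PNs.

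Of 14377 genes tested, 4801 differed between CA1 PNs and DGCs (33.4%), 2496 higher in CA1 PNs (17.4%) and 2305 higher in DGCs (16.0%). At a fold of 2 or more, 2210 genes were called (15.4%), 1042 higher in CA1 PNs (7.25%) and 1168 higher in DGCs (8.12%). The 5 libraries of CA1 PNs and the 5 of DGCs did not overlap in 3466 genes (24.1%), and 88 genes had no count in any library of one population. The genes higher in CA1 PNs comprised 2369 protein-coding genes and 58 long noncoding RNAs with a median fold of 1.80, and those higher in DGCs 2027 and 119 with a median fold of 2.03. The median LFC over all genes tested was -0.035. In the gene lists below, from immediate early genes to amyloid and tau genes, 48.5% to 100% of the tested members of a list were called. These lists were chosen with earlier results of these data known, and each count is to be read beside the 33.4% over all genes. The same holds for every other list, cell type markers included, with 17.4% higher in CA1 PNs and 16.0% higher in DGCs over all genes. The balance of directions followed the scaling, with 2075 genes higher in CA1 PNs and 2844 higher in DGCs by library totals (median LFC -0.135), so small shifts of many genes are read below against that.

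**Figure D2:**
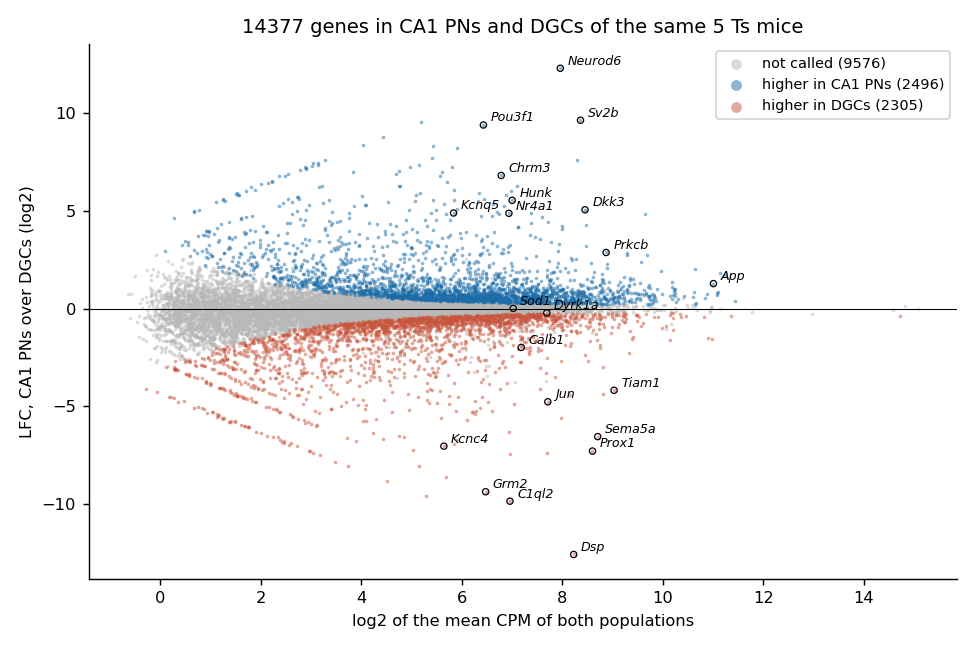
LFC of CA1 PNs over DGCs (log2) against the log2 of the mean CPM of both populations for 14377 genes. Blue points were called higher in CA1 PNs (2496), red points higher in DGCs (2305) and grey points were not called (9576), and outlined points are genes named in the text. The diagonal streaks hold genes with few or no counts in one population, whose fitted LFC depends on the prior count.

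The same contrast was measured in 9 other Ts mice of the ChP diet, which share no library with the 5. In these, 5970 of 14595 genes were called (40.9%), 3108 higher in CA1 PNs and 2862 higher in DGCs, and 7010 genes had an unadjusted p under 0.05 (48.0%). Of the genes higher in CA1 PNs in the 5 mice, 2476 were tested in the 9, 2463 had the same direction and 2197 were called. Of the genes higher in DGCs, 2273 were tested, 2255 had the same direction and 1917 were called. No gene was called in opposite directions in both groups of mice. An LFC given below for the 9 mice comes from that fit. Of 6 tested CA3 markers, 3 were called higher in CA1 PNs and 0 higher in DGCs in the 9 mice (median LFC 0.58). In the 5 mice these counts were 0 and 1 (median LFC -0.72). Of 6 CA2 markers tested in the 9 mice, 1 was called higher in CA1 PNs (median LFC 1.74), and 5 by limma-voom. The part of CA2 or CA3 material in the CA1 libraries of the 9 mice was not tested.

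The largest differences toward CA1 PNs were in genes of very different function. Neurod6, a basic helix-loop-helix factor of pyramidal neurons (chromosome 6, 55654807 to 55658326), was at 488, 521, 458, 535 and 483 CPM in CA1 PNs and had no count in any DG library, at least 1085-fold higher in CA1 PNs. Sv2b, a synaptic vesicle glycoprotein, was at 1005, 611, 582, 574 and 509 CPM in CA1 PNs and at 2.74, 0.581, 0, 0 and 0 CPM in DGCs (LFC 9.63, SE 0.24, adjusted p = 7.06e-16). The libraries did not overlap for either gene, and the CA1 library of mouse 16-357 had the highest Sv2b of its group. Pou3f1, a POU homeobox factor, was at 172 ± 47.8 CPM in CA1 PNs and had 1 count in the 5 DG libraries, a ratio of 1119 times (95% counting interval 200.4 to 44249.5). The matrix-associated protein gene Ccn3 was at 85.5 ± 47.2 CPM in CA1 PNs and higher by a ratio of 537 times (95% counting interval 96 to 21258), and the serotonin receptor gene Htr1b at 62.1 ± 21.2 CPM by a ratio of 204 times (95% counting interval 56.2 to 1694).

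Ctxnd1, a small transmembrane protein gene, was at 593, 630.1, 519, 702 and 670.3 CPM in CA1 PNs and at 0.684, 6.97, 1.61, 2.41 and 3.42 CPM in DGCs (LFC 7.58, SE 0.25, adjusted p = 2.39e-09), without overlap. Also among the 10 largest toward CA1 PNs were Thsd4, Tmem200a and the predicted gene Gm19410, at 119 ± 27.5, 84.4 ± 12 and 70.9 ± 30.8 CPM in CA1 PNs with 2 counts each over the DG libraries. Among the CA1 markers, Spink8 and Lefty1 had no count in DGCs and were at least 94-fold and 71.7-fold higher in CA1 PNs, while Mpped1 (LFC 5.83) and Man1a (LFC 5.93) were detected in DGCs at low levels.

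Toward DGCs, the 10 largest differences held a synaptic organizer, a receptor, a kinase and transcription factors. C1ql2, a secreted C1q-like protein that organizes mossy fiber synapses, was at 267, 267, 247, 301 and 159 CPM in DGCs and had 1 count in the 5 CA1 libraries, a ratio of 1523 times (95% counting interval 273 to 60209). Grm2, the presynaptic group II metabotropic glutamate receptor, was at 187, 169.5, 174, 195 and 161 CPM in DGCs with 1 count in CA1 PNs, a ratio of 1064 times (95% counting interval 191 to 42049). Glis3, a zinc finger factor, and Plk5, a polo-like kinase, were at 103 ± 18.5 and 70.9 ± 6.05 CPM in DGCs, each with 1 count in CA1 PNs. Il1r1, the interleukin 1 receptor, was at 65 ± 9.52 CPM in DGCs and higher by a ratio of 195 times (95% counting interval 53.6 to 1613).

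Igfbp5, a secreted binding protein of insulin-like growth factors, was at 2.48, 1.25, 0.895, 2.14 and 0 CPM in CA1 PNs and at 279, 238, 301, 265 and 147 CPM in DGCs (LFC -7.42, SE 0.22, adjusted p = 1.82e-22). Stxbp6, a regulator of SNARE complex assembly also called amisyn, was at 3.31, 1.87, 3.58, 3.22 and 0 CPM in CA1 PNs and at 375, 360.0, 444, 424 and 446 CPM in DGCs (LFC -7.37, SE 0.22, adjusted p = 5.15e-16). Kcnc4, a voltage-gated potassium channel of the Kv3 family, was at 0.719 ± 0.878 CPM in CA1 PNs and 99 ± 19 CPM in DGCs (LFC -7.04, SE 0.31, adjusted p = 5.21e-18). The populations did not overlap for these genes. The genes named here from the 10 largest of both directions were called with the same direction in the 9 other Ts mice, for example Sv2b (LFC 9.80), Igfbp5 (LFC -6.13) and Stxbp6 (LFC -7.09).

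Immediate early genes, which neurons switch on within minutes of synaptic activity, were mostly higher in CA1 PNs. Of 20 tested, 14 were called higher in CA1 PNs and 3 higher in DGCs, with a median LFC of 2.21 against -0.035 over all genes, and with 14 and 3 calls in the 9 other Ts mice. Without mouse 16-357 the counts were 16 and 3. Nr4a1, an orphan nuclear receptor, was at 132, 246, 255, 268 and 286 CPM in CA1 PNs and at 8.9, 9.87, 10.4, 7.24 and 0 CPM in DGCs (LFC 4.87, SE 0.43, adjusted p = 9.31e-04). Egr1, a zinc finger factor of plasticity, was at 394, 775, 847, 751 and 605 CPM in CA1 PNs and at 32.9, 48.2, 29.7, 30.5 and 26.3 CPM in DGCs (LFC 4.28, SE 0.16, adjusted p = 7.43e-11). The groups did not overlap for either gene.

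Dusp6, a phosphatase of ERK, was at 170.3 ± 50.9 CPM in CA1 PNs and 3.11 ± 1.64 CPM in DGCs (LFC 5.61, SE 0.22, adjusted p = 1.79e-18), and Dusp1, a phosphatase of MAP kinases, at 11.5 ± 3.3 CPM in CA1 PNs with 3 counts in DGCs, a ratio of 25.6 times (95% counting interval 8.4 to 127). Arc, a capsid-like regulator of AMPA receptor endocytosis (402 ± 97.7 CPM in CA1 PNs and 37.5 ± 6.49 CPM in DGCs, LFC 3.40), Npas4 (LFC 1.95) and Fos (LFC 1.80) were chosen after their values were seen. Fos overlapped between the populations, since the highest DG value of 16.1 CPM (mouse 17-157) exceeded the lowest CA1 value of 13.2 CPM (mouse 16-357). The CA1 library of mouse 16-357 had the lowest Nr4a1, Egr1, Dusp6 and Arc of its group.

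Jun, the AP-1 subunit, went the other way, at 10.8, 14.3, 19.7, 21.4 and 8.99 CPM in CA1 PNs and at 433, 455, 378, 385 and 365 CPM in DGCs (LFC -4.77, SE 0.16, adjusted p = 3.89e-17; LFC -4.76 in the 9 other mice). Btg2, an antiproliferative gene, was at 5.79, 8.11, 4.48, 3.22 and 11.7 CPM in CA1 PNs and at 25.3, 22.6, 30.5, 31.4 and 29.7 CPM in DGCs (LFC -2.03, SE 0.29, adjusted p = 8.62e-07). The third, Fosl2, was at 36.4, 31.8, 66.3, 69.7 and 40.4 CPM in CA1 PNs and at 66.4, 78.4, 77.1, 65.1 and 77.6 CPM in DGCs (LFC -0.64, SE 0.18, adjusted p = 0.00646), overlapped between the populations and was not called without mouse 16-490 (adjusted p = 0.0657). Among the AP-1 genes, Fos and Junb were called higher in CA1 PNs, Jun and Fosl2 higher in DGCs, and Fosb and Jund not called. Jund (LFC 0.33, adjusted p = 0.0713) was called higher in CA1 PNs without mouse 16-357 (LFC 0.41, adjusted p = 0.0122).

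The upstream sequence of 4 of these genes is shown, because members of the list fell on both sides of the comparison and many immediate early genes are known to be controlled by the cyclic AMP response element binding protein CREB. Each run holds the 250 bases before the RefSeq start of the gene (GRCm38.p6), 5′ to 3′ on the strand of the gene. Capitals mark TGACG on either strand (read as CGTCA on the reverse one), the core of the cyclic AMP response element, and its extension to the full palindrome TGACGTCA, which contains TGACG.
Nr4a1 (chr15:101266596-101266845, plus strand): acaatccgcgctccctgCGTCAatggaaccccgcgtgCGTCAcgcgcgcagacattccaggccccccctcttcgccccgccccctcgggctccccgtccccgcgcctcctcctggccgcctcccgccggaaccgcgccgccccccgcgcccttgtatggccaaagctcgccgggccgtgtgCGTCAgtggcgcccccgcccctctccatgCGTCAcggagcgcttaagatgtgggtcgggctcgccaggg
Dusp1 (chr17:26508473-26508722, minus strand): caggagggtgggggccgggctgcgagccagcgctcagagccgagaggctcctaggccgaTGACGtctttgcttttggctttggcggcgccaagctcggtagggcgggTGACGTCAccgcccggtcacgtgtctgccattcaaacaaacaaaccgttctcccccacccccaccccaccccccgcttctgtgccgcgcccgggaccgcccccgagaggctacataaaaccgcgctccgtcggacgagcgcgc
Jun (chr4:95052223-95052472, minus strand): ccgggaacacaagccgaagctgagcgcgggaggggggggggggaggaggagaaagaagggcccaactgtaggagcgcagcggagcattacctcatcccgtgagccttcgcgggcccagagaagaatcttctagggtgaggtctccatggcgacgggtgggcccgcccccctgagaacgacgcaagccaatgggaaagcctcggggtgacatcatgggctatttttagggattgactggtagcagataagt
Btg2 (chr1:134079156-134079405, minus strand): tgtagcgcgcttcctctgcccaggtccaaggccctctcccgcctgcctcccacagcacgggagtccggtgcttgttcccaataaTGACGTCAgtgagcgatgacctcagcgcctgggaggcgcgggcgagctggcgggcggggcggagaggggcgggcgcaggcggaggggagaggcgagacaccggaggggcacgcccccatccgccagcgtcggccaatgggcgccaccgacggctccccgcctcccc

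Nr4a1 held 4 TGACG motifs, Dusp1 2, 1 of them the full palindrome, Btg2 the full palindrome once and the Jun window none. RefSeq promoters were matched for 16 of the 20 immediate early genes. TGACG was present in 10 of 11 matched genes higher in CA1 PNs, in 1 of 3 higher in DGCs and in 1 of 2 that were not called, against 17.77% of 32851 promoters of the same length. The matched gene higher in CA1 PNs without the motif was Dusp6, whose window is not printed. A gene with several promoters in the table was counted where any of them held the motif, whereas the share is per promoter, so the counts and the share are not in the same unit. The full palindrome was present in 2 of the 16 (Dusp1 and Btg2), against 1.546% of all promoters. A match describes letters in this window and is not a measured binding site.

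Transcription factors split between the populations. Of 61 tested, 21 were called higher in CA1 PNs and 17 higher in DGCs (23 without mouse 16-357), with a median LFC of 0.07 that changed sign by library totals (-0.04). Beside Neurod6 and Pou3f1, the CA1 side held Meis2, a TALE homeobox factor, at 19.9, 48, 51, 65.4 and 40.4 CPM in CA1 PNs and at 0.684, 0, 2.41, 1.61 and 0 CPM in DGCs (LFC 5.46, SE 0.38, adjusted p = 3.26e-13). Beside Prox1, the DG side held St18, a myelin transcription factor family member, at 0.828, 0, 0.895, 2.14 and 0.899 CPM in CA1 PNs and at 131, 121, 113, 121 and 81 CPM in DGCs (LFC -6.92, SE 0.29, adjusted p = 9.53e-19). It also held the zinc finger genes Rreb1, at 37 ± 7.01 CPM in CA1 PNs and 426 ± 72.4 CPM in DGCs (LFC -3.51, SE 0.13, adjusted p = 2.60e-20), and Zfpm2, a GATA cofactor, at 15.4 ± 4.65 CPM in CA1 PNs and 142 ± 19.4 CPM in DGCs (LFC -3.19, SE 0.18, adjusted p = 3.65e-14). None of these genes overlapped between the populations.

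Glutamate receptor families differed in direction. Of 6 NMDA receptor genes tested, 3 were higher in CA1 PNs and none higher in DGCs. Grin1, the obligatory subunit (chromosome 2, 25181186 to 25209226), was at 1202, 1142, 1188, 984 and 1132 CPM in CA1 PNs and at 605, 518, 485, 515 and 515 CPM in DGCs (LFC 1.10, SE 0.08, adjusted p = 2.13e-12). Grin2b, which lengthens channel opening, was at 2229, 3141, 3176, 2591 and 3042 CPM in CA1 PNs and at 1527, 1577, 1631, 1511 and 1604 CPM in DGCs (LFC 0.84, SE 0.08, adjusted p = 2.78e-10). Grin2a, the subunit that dominates in adult synapses, was at 2023 ± 457 CPM in CA1 PNs and 1119.7 ± 65.1 CPM in DGCs (LFC 0.82, SE 0.10, adjusted p = 5.31e-06). The groups did not overlap for the 3 genes, and Grin3a, which lowers calcium flow, was not called (LFC -0.57, adjusted p = 0.231).

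Of 19 AMPA receptor genes and auxiliary proteins, 8 were higher in CA1 PNs and 6 higher in DGCs. The pore subunit Gria1 was at 2174 ± 259 CPM in CA1 PNs and 1506 ± 58 CPM in DGCs (LFC 0.52, SE 0.08, adjusted p = 6.73e-06). Nptx2, a secreted pentraxin that clusters AMPA receptors, was at 143, 67.4, 59.1, 69.7 and 77.3 CPM in CA1 PNs and at 5.48, 20.9, 15.3, 11.3 and 14.8 CPM in DGCs (LFC 2.56, SE 0.43, adjusted p = 0.00744), and Shisa6, an auxiliary subunit, at 414 ± 46.2 CPM in CA1 PNs and 151 ± 17.3 CPM in DGCs (LFC 1.45, SE 0.10, adjusted p = 1.19e-13). Other auxiliary proteins were on the DG side. Shisa9, a relative of Shisa6 also called CKAMP44, was at 33.9, 6.24, 8.06, 11.8 and 3.59 CPM in CA1 PNs and at 158, 161, 155, 213 and 177 CPM in DGCs (LFC -3.85, SE 0.51, adjusted p = 0.00546), and the cornichon Cnih3 at 4.14, 11.2, 24.2, 28.9 and 17.1 CPM in CA1 PNs and at 114, 114, 94.8, 86.8 and 98.2 CPM in DGCs (LFC -2.65, SE 0.43, adjusted p = 0.00774). The CA1 library of mouse 16-357 had the highest Nptx2 and Shisa9 and the lowest Cnih3 of its group.

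Kainate receptors were mostly higher in DGCs, with 4 of 7 genes called there and 1 called higher in CA1 PNs (median LFC -1.57). Grik3 was at 14.1, 8.11, 6.27, 5.36 and 6.29 CPM in CA1 PNs and at 71.2, 82.4, 88.4, 97.3 and 52.5 CPM in DGCs (LFC -3.24, SE 0.22, adjusted p = 1.93e-13), and Grik2 at 74.7 ± 16.8 CPM in CA1 PNs and 219 ± 20.5 CPM in DGCs (LFC -1.57, SE 0.12, adjusted p = 2.87e-12). Their partner Neto1 (LFC -2.65) lost its call without any of mice 16-490, 17-153, 17-157 and 17-173 (adjusted p = 0.0642 to 0.0721), and Grik4 (LFC -1.95), which also marks CA3 and overlapped between the populations, without mouse 17-153 or 17-157 (adjusted p = 0.0542 and 0.0507). Grik4 was not called in the 9 other mice (LFC -0.73, adjusted p = 0.444). The related partner Neto2 was the gene higher in CA1 PNs, at 70.4, 93, 86, 78.2 and 78.2 CPM against 5.48, 6.97, 4.02, 3.22 and 4.57 CPM in DGCs (LFC 4.01, SE 0.21, adjusted p = 3.58e-16).

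Of 7 metabotropic glutamate receptors tested, 2 were called higher in CA1 PNs and 5 higher in DGCs. Grm5, a postsynaptic group I receptor coupled to phospholipase C, was at 636, 665, 623, 727 and 663 CPM in CA1 PNs and at 391, 474, 426, 441 and 438 CPM in DGCs (LFC 0.61, SE 0.08, adjusted p = 6.44e-07). The groups did not overlap for this gene. Grm2 (above), Grm3 (LFC -1.42) and Grm7 (LFC -0.58), which dampen release, were higher in DGCs. The call of Grm4 in CA1 PNs (LFC 1.24, adjusted p = 0.0497) lay at the threshold. It was lost without the block by mouse (adjusted p = 0.0516), by library totals (0.0695), RLE factors (0.0528), DESeq2 (0.219) and limma-voom (0.0641), with no filter (0.0510), with the unpaired DG library of mouse 17-192 added and no block (0.128), and without mouse 16-357, 16-490, 17-153 or 17-173 (adjusted p = 0.0553, 0.117, 0.343 and 0.0556). On the TPM scale, which divides by transcript length, Grm5 had the highest median level of the genes named here in both populations (118 TPM in CA1 PNs and 101 TPM in DGCs), followed in DGCs by Grm2 (47.2 TPM) and Grm7 (35.4 TPM).

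Of 12 GABA-A receptor subunit genes, which form the fast inhibitory receptor, 4 were higher in CA1 PNs and 3 higher in DGCs. Gabra5, an extrasynaptic subunit of CA1 dendrites, was at 292, 333, 225, 305 and 331 CPM in CA1 PNs and at 149, 128, 123, 151 and 119.9 CPM in DGCs (LFC 1.14, SE 0.11, adjusted p = 3.07e-10). Gabra3 (LFC 4.10, SE 0.48, adjusted p = 2.80e-08) and Gabrg3 (LFC 1.88) were also higher in CA1 PNs. Gabrd, the subunit of tonic inhibition in granule cells, was at 14.9, 4.37, 12.5, 7.5 and 3.59 CPM in CA1 PNs and at 52, 31.4, 53.8, 37 and 30.8 CPM in DGCs (LFC -2.29, SE 0.24, adjusted p = 2.76e-09), and its usual partner Gabra4 at 123 ± 19.4 CPM in CA1 PNs and 191 ± 24.4 CPM in DGCs (LFC -0.65, SE 0.11, adjusted p = 1.86e-05).

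Potassium and HCN channel genes were called in both directions, 23 of 65 higher in CA1 PNs and 18 higher in DGCs (24 without mouse 16-357). Kcnq5, an M-current subunit (chromosome 1, 21468627 to 22032166), was at 196, 114, 84.2, 84.7 and 71.9 CPM in CA1 PNs and at 4.79, 2.32, 1.61, 4.02 and 6.85 CPM in DGCs (LFC 4.89, SE 0.24, adjusted p = 5.13e-16). Kcnh7, an ERG channel (LFC 4.05, SE 0.22, adjusted p = 2.65e-06), and Kcnt1, a sodium-activated channel (LFC 4.30, SE 0.32, adjusted p = 1.12e-12), were also higher in CA1 PNs, and none of these genes overlapped. On the DG side, beside Kcnc4, the silent modifier Kcng1 was at 4.97, 3.12, 3.58, 1.07 and 1.8 CPM in CA1 PNs and at 80.1, 109, 75.5, 85.2 and 89 CPM in DGCs (LFC -4.84, SE 0.24, adjusted p = 1.04e-16). Kcna3, a Shaker channel, was at 11.3 ± 4.78 CPM in DGCs and had 3 counts in CA1 PNs, a ratio of 23.4 times (95% counting interval 7.72 to 116).

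Of 37 sodium channel, calcium channel and calcium store genes, 19 were higher in CA1 PNs and 10 higher in DGCs, with a median LFC of 0.64. Scn4b, an accessory sodium channel subunit, was at 78.6, 89.8, 95.8, 62.2 and 76.4 CPM in CA1 PNs and at 2.74, 1.74, 2.41, 3.22 and 3.42 CPM in DGCs (LFC 4.90, SE 0.24, adjusted p = 6.05e-17). Ryr3, a ryanodine receptor of calcium stores (LFC 1.95, SE 0.11, adjusted p = 2.16e-15), the T-type channel gene Cacna1i (LFC 1.84, SE 0.17, adjusted p = 4.37e-09) and the calcium pump Atp2b1 (LFC 1.74, SE 0.21, adjusted p = 0.00304) were higher in CA1 PNs without overlap. The related pump Atp2b4 was higher in DGCs, at 4.97, 5.62, 2.69, 5.36 and 6.29 CPM in CA1 PNs and at 67.1, 67.4, 53, 93.3 and 87.9 CPM in DGCs (LFC -3.83, SE 0.21, adjusted p = 1.59e-15). Trpc6, a diacylglycerol-gated cation channel, was at 7.45, 3.12, 8.06, 2.14 and 3.59 CPM in CA1 PNs and at 155, 192, 192, 215 and 185 CPM in DGCs (LFC -5.23, SE 0.21, adjusted p = 1.03e-15), and the L-type channel gene Cacna1c at 119.7 ± 53.5 CPM in CA1 PNs and 412 ± 25 CPM in DGCs (LFC -1.85, SE 0.21, adjusted p = 5.75e-04).

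Calcium-binding proteins and calmodulin kinases were called higher in CA1 PNs in 20 of 37 genes and higher in DGCs in 9 (12 without mouse 16-357), with a median LFC of 0.50. Calb1, the calcium buffer calbindin that fills granule cells and superficial CA1 PNs, was at 25.7, 90.5, 73.4, 61.1 and 49.4 CPM in CA1 PNs and at 226, 232, 243, 243 and 205 CPM in DGCs (LFC -1.99, SE 0.23, adjusted p = 4.65e-04). Camk4, a nuclear kinase that phosphorylates CREB, was at 212, 89.8, 73.4, 69.7 and 61.1 CPM in CA1 PNs and at 8.21, 24.4, 10.4, 13.7 and 12.6 CPM in DGCs (LFC 2.77, SE 0.44, adjusted p = 0.00659). Camk1g (LFC 3.96) and Gap43, a growth-associated calmodulin-binding protein (LFC 3.82), were also higher in CA1 PNs. The CA1 library of mouse 16-357 held the lowest Calb1 and the highest Camk4 of its group.

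Of 45 genes of cyclic nucleotide and protein kinase C (PKC) signaling, 19 were higher in CA1 PNs and 10 higher in DGCs. Prkcb, a classical PKC, was at 341, 923, 882, 976 and 1016 CPM in CA1 PNs and at 89.7, 109, 121, 119.8 and 94.7 CPM in DGCs (LFC 2.87, SE 0.23, adjusted p = 2.06e-04), and its relative Prkca at 1382, 654, 589, 532 and 729.6 CPM in CA1 PNs and at 175, 207, 161, 149 and 174 CPM in DGCs (LFC 2.08, SE 0.21, adjusted p = 5.96e-04). Mouse 16-357 had the lowest Prkcb and the highest Prkca of the CA1 libraries, and neither gene overlapped between the populations. Pde1a, a calmodulin-dependent phosphodiesterase, was at 232, 284, 271, 316 and 256 CPM in CA1 PNs and at 8.21, 3.48, 0.803, 3.22 and 0 CPM in DGCs (LFC 6.26, SE 0.43, adjusted p = 1.76e-04). On the DG side, Rasgrf2, a Ras exchange factor, was at 53.8, 13.1, 14.3, 11.8 and 15.3 CPM in CA1 PNs and at 391, 383, 276, 378 and 347 CPM in DGCs (LFC -4.14, SE 0.39, adjusted p = 0.00141), and Pde7b (LFC -4.35, SE 0.30, adjusted p = 1.36e-12) and the protein kinase A subunit Prkar2b (LFC -3.07, SE 0.24, adjusted p = 3.06e-12) did not overlap either.

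Axon guidance genes were called in 38 of 54 cases (70.4%, against 33.4% over all genes tested), 18 higher in CA1 PNs and 20 higher in DGCs. Their median LFC of 0.07 changed sign by library totals (-0.03). A secreted semaphorin and a receptor stood on the CA1 side. Sema3e was at 97.7, 243, 261, 224 and 285 CPM in CA1 PNs and at 6.84, 4.06, 6.43, 4.82 and 5.71 CPM in DGCs (LFC 5.23, SE 0.21, adjusted p = 4.15e-15), Plxna1, a plexin that binds class 3 and class 6 semaphorin complexes, at 449, 381, 477, 462 and 437 CPM in CA1 PNs and at 35.6, 49.9, 46.6, 41 and 46.8 CPM in DGCs (LFC 3.32, SE 0.12, adjusted p = 1.33e-20), and the ephrin receptor Ephb3 at 38 ± 14.2 CPM in CA1 PNs and 1.62 ± 1.72 CPM in DGCs (LFC 4.32, SE 0.37, adjusted p = 2.14e-10). Sema5a, a transmembrane semaphorin, was at 38.1, 0, 1.79, 6.43 and 3.59 CPM in CA1 PNs and at 717, 811, 839, 898 and 849 CPM in DGCs (LFC -6.55, SE 0.85, adjusted p = 0.00554; LFC -8.32 without mouse 16-357). Its relative Sema5b was at 13.9 ± 8.53 CPM in DGCs with 2 counts in CA1 PNs, and Ntng1, a netrin G ligand of presynaptic axons, at 4.64 ± 3.88 CPM in CA1 PNs and 160.4 ± 29.3 CPM in DGCs (LFC -5.07, SE 0.36, adjusted p = 1.62e-05).

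Synaptic adhesion genes were called higher in CA1 PNs in 23 of 50 cases and higher in DGCs in 14 (16 without mouse 16-357). Adgrl2, the latrophilin of distal CA1 dendrites, varied widely between mice, at 5.79, 37.4, 90.4, 278 and 156 CPM in CA1 PNs, and was at 1.37, 2.32, 0, 4.82 and 1.14 CPM in DGCs (LFC 5.56, SE 0.44, adjusted p = 6.83e-06). Tenm4, a teneurin, was at 216 ± 48 CPM in CA1 PNs and 24.7 ± 9.95 CPM in DGCs (LFC 3.15, SE 0.19, adjusted p = 9.79e-09) and Cntnap2, a neurexin family member, at 348 ± 116 CPM in CA1 PNs and 28.7 ± 6.85 CPM in DGCs (LFC 3.54, SE 0.35, adjusted p = 0.00151). Beside C1ql2, the DG side held Lrrtm4, a postsynaptic organizer of granule cell synapses, at 29.8, 2.5, 2.69, 8.57 and 2.7 CPM in CA1 PNs and at 260.1, 233, 276, 229 and 261 CPM in DGCs (LFC -4.90, SE 0.61, adjusted p = 0.00495), and Lrrtm3 (LFC -3.50, SE 0.28, adjusted p = 1.25e-11). Cntn5, a contactin, was at 20.6 ± 4.64 CPM in DGCs and higher by a ratio of 41.1 times (95% counting interval 13.8 to 202).

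Of 23 cadherin and nonclustered protocadherin genes, 7 were higher in CA1 PNs and 10 higher in DGCs. Cdh6 was at 10.8, 71.7, 26.9, 20.4 and 35.9 CPM in CA1 PNs and at 0, 0.581, 1.61, 1.61 and 0 CPM in DGCs (LFC 5.29, SE 0.44, adjusted p = 2.02e-11), and Cdh10 at 94.6 ± 20.7 CPM in CA1 PNs and 15.4 ± 6.9 CPM in DGCs (LFC 2.65, SE 0.21, adjusted p = 9.56e-10). Cdh9, the homophilic cadherin of mossy fiber synapses, was at 7.45, 2.5, 3.58, 3.22 and 0 CPM in CA1 PNs and at 97.9, 85.9, 103, 121 and 112 CPM in DGCs (LFC -4.89, SE 0.30, adjusted p = 3.20e-09), and the activity-regulated protocadherin Pcdh8 at 17.4, 12.5, 19.7, 17.1 and 12.6 CPM in CA1 PNs and at 269, 231, 226, 206 and 177 CPM in DGCs (LFC -3.82, SE 0.14, adjusted p = 9.18e-20). These adhesion genes did not overlap between the populations.

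Neuropeptide and growth factor genes were called in both directions, 13 of 36 higher in CA1 PNs and 10 higher in DGCs (14 without mouse 16-357). Igfbp4 was higher in CA1 PNs, at 139, 209, 197, 114 and 123 CPM in CA1 PNs and at 3.42, 3.48, 1.61, 5.63 and 2.28 CPM in DGCs (LFC 5.52, SE 0.22, adjusted p = 3.29e-18), opposite to its relative Igfbp5, and Nell1, a secreted ligand of Robo receptors, at 116 ± 32.2 CPM in CA1 PNs and 3.35 ± 0.983 CPM in DGCs (LFC 5.07, SE 0.22, adjusted p = 2.43e-18). Pdyn, the precursor of the dynorphins of mossy fibers, was at 33.5, 28.5, 38.6, 39.4 and 27.4 CPM in DGCs with 3 counts in CA1 PNs, a ratio of 66.6 times (95% counting interval 22.5 to 325). Nrg1, a ligand of ErbB receptors, was at 0.89 ± 1.02 CPM in CA1 PNs and 15.2 ± 6.63 CPM in DGCs (LFC -3.95, SE 0.55, adjusted p = 1.06e-06). Cck, chosen after its values were seen, was at 494, 451, 376, 377 and 421 CPM in CA1 PNs and at 54.1, 48.8, 68.3, 56.3 and 45.7 CPM in DGCs (LFC 2.96, SE 0.12, adjusted p = 1.53e-18).

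Receptors for neuromodulators and neurotrophins were called higher in CA1 PNs in 23 of 43 cases and higher in DGCs in 7, with a median LFC of 0.71. Chrm3, a muscarinic acetylcholine receptor coupled to phospholipase C (chromosome 13, 9925522 to 10410883), was at 171, 265, 198, 186 and 269.6 CPM in CA1 PNs and at 2.05, 1.74, 0.803, 2.41 and 2.28 CPM in DGCs (LFC 6.81, SE 0.20, adjusted p = 2.07e-22). The serotonin receptor gene Htr1f was at 10.3 ± 4 CPM in CA1 PNs and had no count in DGCs, at least 22.5-fold higher in CA1 PNs, and the nicotinic subunit gene Chrna5 was higher by a ratio of 52.1 times (95% counting interval 14 to 436). On the DG side, Drd1, a dopamine receptor, was at 13, 11, 11.2, 12.1 and 24 CPM with 1 count in CA1 PNs, a ratio of 80.3 times (95% counting interval 14 to 3206). The neuropeptide Y receptor gene Npy1r was at 29.8, 11.9, 11.6, 20.4 and 17.1 CPM in CA1 PNs and at 91, 86.5, 86.8, 90.8 and 92.5 CPM in DGCs (LFC -2.34, SE 0.18, adjusted p = 6.97e-12).

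Of 47 vesicle release genes, 23 were higher in CA1 PNs and 13 higher in DGCs (24 and 16 without mouse 16-357). The SV2 vesicle glycoproteins separated the populations, since Sv2b was on the CA1 side (above) while Sv2c was at 2.48, 3.74, 4.48, 2.14 and 4.49 CPM in CA1 PNs and at 146, 105, 145, 149.5 and 168 CPM in DGCs (LFC -5.27, SE 0.20, adjusted p = 1.85e-19). Syt2, a fast calcium sensor of release, was at 16.3 ± 9.43 CPM in CA1 PNs and 1.42 ± 1.5 CPM in DGCs (LFC 3.47, SE 0.46, adjusted p = 3.08e-07).

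Wnt pathway genes were called in both directions, 13 of 36 higher in DGCs and 7 higher in CA1 PNs (median LFC -0.39). The summed CPM of all 56 genes of the list went the other way and was higher in CA1 PNs (3048 to 3260) than in DGCs (2034 to 2319) without overlap. Axin2, a feedback target of canonical Wnt signaling, was at 13.2, 13.1, 7.16, 16.1 and 13.5 CPM in CA1 PNs and at 49.3, 42.4, 42.6, 41.8 and 34.2 CPM in DGCs (LFC -1.74, SE 0.22, adjusted p = 8.57e-08). The ligand Wnt7b (LFC -2.44, SE 0.31, adjusted p = 2.36e-07), the intracellular modulator Dact1 (LFC -3.31, SE 0.40, adjusted p = 6.01e-08) and the planar polarity gene Vangl2 were also higher in DGCs, Vangl2 by a ratio of 62.9 times (95% counting interval 21.2 to 308). Dkk3, a secreted Dickkopf family protein of pyramidal neurons, was at 447, 805, 676, 765 and 703 CPM in CA1 PNs and at 18.5, 25.5, 18.5, 20.1 and 17.1 CPM in DGCs (LFC 5.05, SE 0.12, adjusted p = 1.88e-24), and the ligand Wnt2, at 14.9 ± 6.65 CPM, had no count in DGCs, at least 32.6-fold higher in CA1 PNs.

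Of 31 extracellular matrix genes, 10 were higher in CA1 PNs and 7 higher in DGCs (10 without mouse 16-357). Col11a1, a fibrillar collagen, was at 91.1, 67.4, 60.9, 36.4 and 98.8 CPM in CA1 PNs and at 0.684, 1.16, 1.61, 1.61 and 0 CPM in DGCs (LFC 5.89, SE 0.31, adjusted p = 4.65e-16). Hapln4, a link protein of perineuronal matrix, was at 416, 155, 108, 110.4 and 146 CPM in CA1 PNs and at 3.42, 4.64, 6.43, 8.04 and 12.6 CPM in DGCs (LFC 4.71, SE 0.49, adjusted p = 0.00185), highest in the CA1 library of mouse 16-357. Smoc2, a calcium-binding matrix protein, was higher in DGCs, at 9.93, 1.25, 1.79, 1.07 and 0.899 CPM in CA1 PNs and at 79.4, 81.9, 58.6, 74 and 89 CPM in DGCs (LFC -4.65, SE 0.38, adjusted p = 1.92e-06), and the collagen gene Col6a1 was higher in DGCs by a ratio of 90.3 times (95% counting interval 15.8 to 3603).

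**Figure D3:**
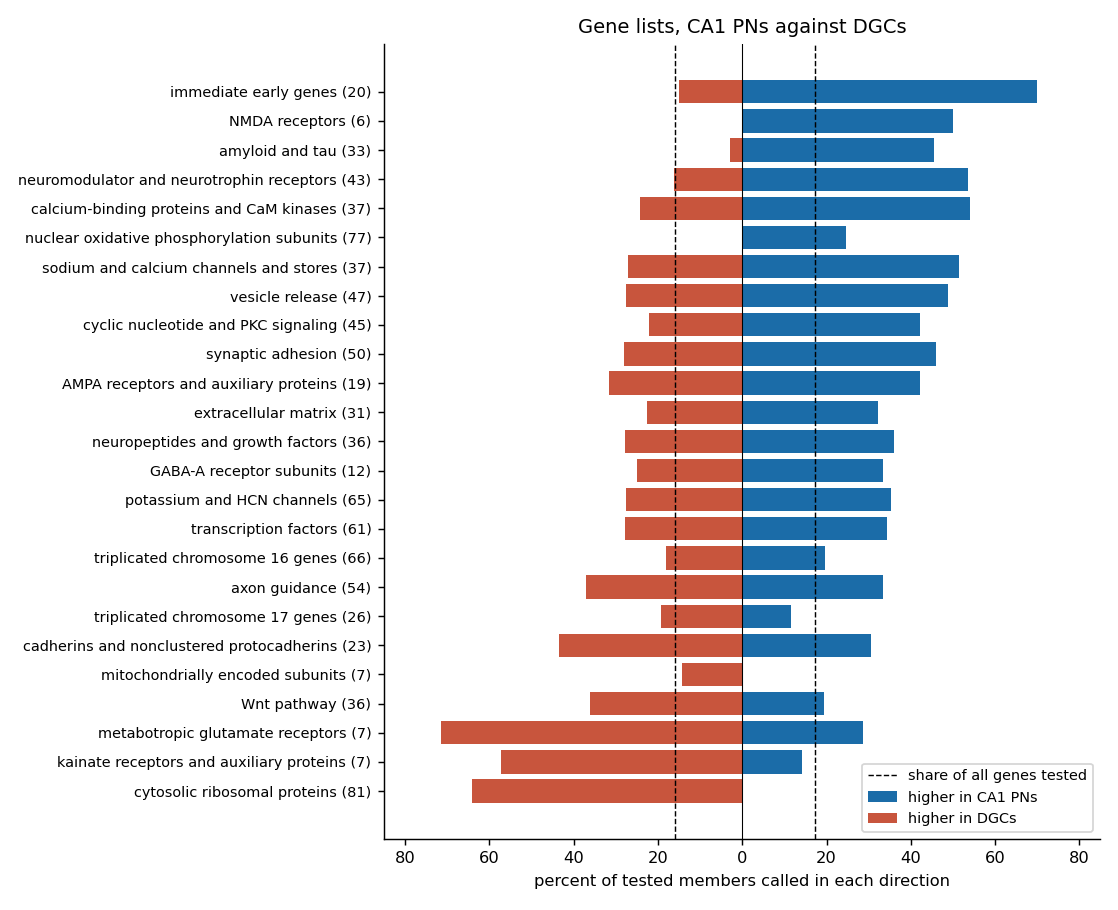
Percent of the tested members of each gene list called higher in CA1 PNs (blue, to the right) or higher in DGCs (red, to the left), with the number tested in parentheses and lists in order of the difference of these shares, cell type markers left out. The dashed lines mark the shares over all genes tested, 17.4% and 16.0%. Immediate early genes reach farthest to the right, at 14 of 20, and metabotropic glutamate receptors and cytosolic ribosomal proteins farthest to the left, at 5 of 7 and 52 of 81.

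Amyloid and tau genes were called higher in CA1 PNs in 15 of 33 cases and higher in DGCs in 1. App, the amyloid precursor protein gene, which is triplicated in these mice (ENSMUSG00000022892, chromosome 16, 84746573 to 84971126, minus strand), was at 2997, 2882, 2930.0, 2714 and 3024 CPM in CA1 PNs and at 1285, 1254, 1154, 1167 and 1149.5 CPM in DGCs (LFC 1.28, SE 0.07, adjusted p = 4.98e-15), without overlap and with an LFC of 1.39 in the 9 other Ts mice. Cdk5r2, an activator of the tau kinase CDK5, was at 241 ± 15.6 CPM in CA1 PNs and 109 ± 14.1 CPM in DGCs (LFC 1.15, SE 0.11, adjusted p = 2.06e-10). The gamma-secretase subunit genes Aph1b (LFC 1.31, SE 0.31, adjusted p = 0.00282) and Aph1c (LFC 1.34, SE 0.37, adjusted p = 0.00506) are near-identical copies whose reads can be split between them, so their separate values are uncertain, and Aph1c was not called by DESeq2 (adjusted p = 0.0629).

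Of the genes of the triplicated chromosome 16 segment, 66 were tested, 13 higher in CA1 PNs, 12 higher in DGCs and 41 not called, with a median LFC of -0.05 against -0.035 over all genes. The share called, 37.88%, lay beside 33.4% over all genes tested. Without mouse 16-357, 15 of these genes were higher in CA1 PNs and 16 higher in DGCs, beside 5139 calls among 14548 genes in that fit. Every gene here is measured in cells with the additional copy, so the comparison is between populations and not between doses of the gene. Tiam1, a Rac exchange factor that shapes spines (ENSMUSG00000002489, chromosome 16, 89583994 to 89941086, minus strand), was at 105, 44.3, 45.7, 43.9 and 44.9 CPM in CA1 PNs and at 999, 1071, 922, 989 and 953 CPM in DGCs (LFC -4.18, SE 0.24, adjusted p = 3.29e-05). Hunk, a kinase of the SNF1 family (ENSMUSG00000053414, chromosome 16, 90182901 to 90296443, plus strand), was at 309, 239.6, 239, 198 and 266 CPM in CA1 PNs and at 2.05, 4.06, 7.23, 6.43 and 7.99 CPM in DGCs (LFC 5.54, SE 0.21, adjusted p = 1.25e-14). These genes had among the largest differences of the segment in opposite directions, without overlap in either, and LFCs of -4.17 and 4.71 in the 9 other Ts mice.

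The repressor Bach1 of heme and oxidative stress genes (LFC -2.12, SE 0.30, adjusted p = 9.50e-07) and the biotin ligase Hlcs (LFC -1.63, SE 0.26, adjusted p = 5.24e-06) were higher in DGCs, and the transmembrane gene Tmem50b (LFC 1.09, SE 0.14, adjusted p = 9.64e-08) higher in CA1 PNs. Sh3bgr had no count in CA1 PNs and was at 5.32 ± 1.64 CPM in DGCs, at least 10.6-fold higher. App, Sod1 and Dyrk1a are the genes of the segment most studied in Down syndrome, and the last 2 were not called. Sod1, superoxide dismutase, was at 113, 138, 129.8, 137 and 132 CPM in CA1 PNs and at 146, 130.1, 112, 128 and 131 CPM in DGCs (LFC 0.01, SE 0.11, adjusted p = 0.973). Dyrk1a, the kinase that phosphorylates tau and splicing factors (ENSMUSG00000022897, chromosome 16, 94369804 to 94496380, plus strand), was at 185, 193, 169, 196 and 210.3 CPM in CA1 PNs and at 207, 243, 225, 219 and 216 CPM in DGCs (LFC -0.22, SE 0.10, adjusted p = 0.089), and passed the threshold without mouse 16-357 (LFC -0.24, adjusted p = 0.0322), by library totals (LFC -0.32, adjusted p = 0.0109) and in the 9 other mice (LFC -0.36, adjusted p = 9.22e-04).

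Pcp4, a calmodulin regulator of the segment and a CA2 and granule cell marker, was at 275, 2.5, 2.69, 0 and 0 CPM in CA1 PNs and at 230.0, 241, 193, 222 and 163 CPM in DGCs (LFC -3.76, SE 1.49, adjusted p = 0.143). Without mouse 16-357 its LFC was -7.05 and it was called higher in DGCs, as it was by DESeq2 with all 5 mice (LFC -6.96, adjusted p = 1.26e-05). Per length, App had a median of 878 TPM in CA1 PNs and 427 TPM in DGCs, above Sod1 at 229 and 251 TPM and Dyrk1a at 48 and 63.8 TPM.

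Of 26 tested genes of the triplicated chromosome 17 segment, 3 were higher in CA1 PNs and 5 higher in DGCs. The share called, 30.8%, lay near the 33.4% over all genes tested. Synj2, an inositol phosphatase of vesicle and membrane traffic (ENSMUSG00000023805, chromosome 17, 5991555 to 6094586, plus strand), was at 166, 212, 199, 193 and 188 CPM in CA1 PNs and at 2.05, 4.06, 5.62, 7.24 and 4.57 CPM in DGCs (LFC 5.36, SE 0.19, adjusted p = 1.01e-20; LFC 5.00 in the 9 other mice), without overlap. The palmitoyltransferase Zdhhc14 (LFC 1.36, SE 0.16, adjusted p = 2.75e-08) and the phosphodiesterase Pde10a (LFC 0.46, SE 0.11, adjusted p = 0.00118) were the other 2 higher in CA1 PNs. Pde10a was not called in the 9 other mice (LFC 0.18, adjusted p = 0.152). Rps6ka2, a ribosomal S6 kinase, was at 27.3, 34.3, 26.9, 12.9 and 16.2 CPM in CA1 PNs and at 96.5, 99.3, 90.8, 90.0 and 81 CPM in DGCs (LFC -1.96, SE 0.17, adjusted p = 5.80e-11) and Tulp4 at 195 ± 26.1 CPM in CA1 PNs and 426 ± 25.8 CPM in DGCs (LFC -1.13, SE 0.10, adjusted p = 3.67e-11). The sorting nexin gene Snx9 (LFC -1.87), Serac1 (LFC -0.51) and Scaf8 (LFC -0.30) were also higher in DGCs, Serac1 not without mouse 17-153 or 17-173 (adjusted p = 0.0669 and 0.128) and Scaf8 not without any of mice 16-357, 17-153, 17-157 and 17-173 (adjusted p = 0.0501, 0.0629, 0.059 and 0.120). DESeq2 called neither Serac1 nor Scaf8 (adjusted p = 0.157 and 0.177).

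**Figure D4:**
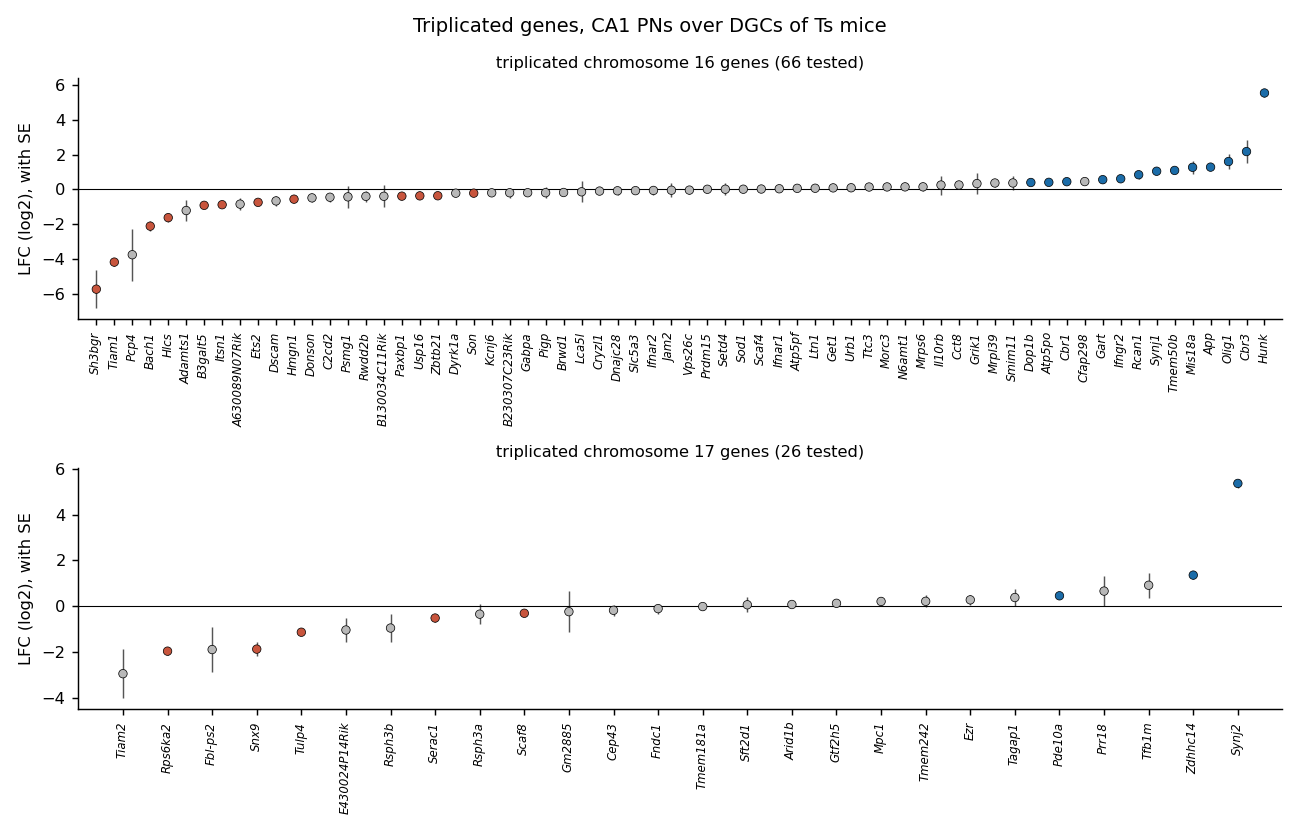
LFC of CA1 PNs over DGCs (log2) with its SE for each tested gene of the triplicated segments of chromosome 16 (upper panel, 66 genes) and chromosome 17 (lower panel, 26 genes), in order of LFC, blue where called higher in CA1 PNs, red where called higher in DGCs and grey where not called. Most points lie near 0, Tiam1 and Hunk lie near opposite ends of the upper panel beside Sh3bgr at its left end, whose fitted LFC depends on the prior count, Synj2 lies at the right end of the lower one, and the long bar of Pcp4 comes with its value in mouse 16-357.

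Of 81 cytosolic ribosomal protein genes, 52 were higher in DGCs (16.0% over all genes tested) and none higher in CA1 PNs, with a median LFC of -0.60 (46 calls and -0.49 without mouse 16-357, 32 calls by DESeq2). Rps4x was at 20.7, 25.6, 19.7, 19.3 and 27.9 CPM in CA1 PNs and at 54.1, 52.3, 53, 52.3 and 34.2 CPM in DGCs (LFC -1.12, SE 0.19, adjusted p = 1.62e-05). Rpl36 (LFC -1.15) and Rpl37a (LFC -1.15) were also among the largest, but were not called in the 9 other mice (adjusted p = 0.504 and 0.277), in which 37 ribosomal genes were higher in DGCs and 1 higher in CA1 PNs. Ribosomal protein genes have many processed pseudogenes that can take their reads, so single values are uncertain.

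Of 77 nuclear genes of oxidative phosphorylation, 19 were higher in CA1 PNs, none higher in DGCs and 58 not called. The share called in either direction, 24.7%, lay below the 33.4% over all genes tested, and the share of all genes called higher in CA1 PNs was 17.4%. The median LFC was 0.27 (19 calls became 10 by library totals, 10 by DESeq2, 12 without mouse 17-173, and 49 and 1 in the 9 other mice). Atp5f1d, a subunit of ATP synthase, was at 161, 107, 104, 84.7 and 126 CPM in CA1 PNs and at 90.3, 62.1, 61.1, 53.9 and 75.3 CPM in DGCs (LFC 0.76, SE 0.12, adjusted p = 8.46e-06), with the values of mouse 16-357 the highest of both groups, and the complex I subunit gene Ndufa5 was at 61.9 ± 3.45 CPM in CA1 PNs and 38.1 ± 4.75 CPM in DGCs (LFC 0.71, SE 0.15, adjusted p = 3.76e-04). Of 7 subunit genes of the mitochondrial genome that were tested, mt-Cytb was higher in DGCs (1232 ± 262 CPM in CA1 PNs and 1575 ± 147 CPM in DGCs, LFC -0.37, adjusted p = 0.00387; adjusted p = 0.538 in the 9 other mice) and 6 were not called, 1 of which was called higher in CA1 PNs without the block by mouse. The share called, 14.3%, lay below the 33.4% over all genes tested.

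Markers of other cell types were measured in both populations. In the CA1 library of mouse 16-357 the summed CPM of inhibitory neuron markers (776) and of astrocyte markers (723) exceeded that of CA1 markers (663), and in the other CA1 libraries both lay below it. These sums hold different genes and are not divided by transcript length, so their order does not give the shares of the cell types. The summed CPM of 10 inhibitory neuron markers was 254.3 to 776 in CA1 PNs, highest in mouse 16-357, and 297 to 423 in DGCs, and 5 were higher in CA1 PNs, namely Sst (78 counts against 1), Pvalb (LFC 2.10), Vip (LFC 1.76), Erbb4 (LFC 1.60) and Lhx6 (LFC 1.49). Over all genes tested, 17.4% were called higher in CA1 PNs. The CA1 library of mouse 16-357 had by far the highest Sst (46.4 CPM, against 0 to 10.8 CPM in the other CA1 libraries). It also had the highest Pvalb (26.5 against 8.09 to 12.5 CPM) and Erbb4 (135 against 47.6 to 68.0 CPM). Without this mouse, 4 of the 10 were higher in CA1 PNs and 1 higher in DGCs. Gad1, the GABA-synthesizing enzyme, was at 247, 88.6, 110.1, 67.5 and 65.6 CPM in CA1 PNs and at 146, 163, 191, 169 and 189 CPM in DGCs (LFC -0.71, adjusted p = 0.277; LFC -1.09 and called higher in DGCs without mouse 16-357; called with all 5 mice by DESeq2, LFC -0.77, adjusted p = 0.0162). By DESeq2, 2 of the 10 were higher in CA1 PNs and 1 higher in DGCs, and Sst, Vip and Lhx6 were not called (adjusted p = 0.127, 0.117 and 0.0840). Vip also lost its call without the block by mouse (adjusted p = 0.0504), by library totals (adjusted p = 0.0596), with no filter (adjusted p = 0.0508) and without mouse 16-357, 16-490, 17-153 or 17-157 (adjusted p = 0.072, 0.105, 0.192 and 0.0605) and Lhx6 without mouse 16-490 (adjusted p = 0.0516). Of 4 tested markers of immature granule cells, Sox11 (LFC -2.57, SE 0.19, adjusted p = 3.05e-12) and Dcx, the microtubule protein doublecortin (LFC -2.43, SE 0.34, adjusted p = 6.77e-07), were higher in DGCs, while Eomes had no count in CA1 PNs and a mean of 0.44 CPM in DGCs.

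Glial and vascular sums were of the same order in both populations, but some kept their direction within mice. In each mouse the astrocyte sum was higher in DGCs, and the vascular and oligodendrocyte precursor sums were higher in CA1 PNs. Oligodendrocyte and microglia sums differed in direction between mice. Astrocyte markers summed to 572 to 969 CPM in CA1 PNs and 856 to 1121 CPM in DGCs, with Slc1a2 (LFC -0.58) and Slc1a3 (LFC -0.56), the glial glutamate transporters, higher in DGCs and Aldoc (LFC 0.48) higher in CA1 PNs. Oligodendrocyte markers summed to 119 to 345 CPM in CA1 PNs, highest in mouse 16-357, and to 172 to 231 CPM in DGCs, with Mbp (LFC -0.90) and Ermn (LFC -1.31) higher in DGCs. Microglia markers summed to 31.3 to 50.5 and 45.7 to 58.2 CPM with none called, and vascular markers to 28.7 to 77.0 and 19.4 to 28.9 CPM with Itm2a (LFC 1.20) higher in CA1 PNs. Of 4 tested oligodendrocyte precursor markers, Olig1, on the triplicated segment (LFC 1.60), was higher in CA1 PNs and 3 were not called. The median LFC of the 4 was 0.77, and 0.29 without mouse 16-357. Their list summed to 8.99 to 35.6 CPM in CA1 PNs, highest in mouse 16-357, and to 6.39 to 9.58 CPM in DGCs. Ajap1, the 1 mossy cell marker tested (LFC 1.25), was higher in CA1 PNs, and the mossy cell markers Gal and Glipr1 had no count in any library. The call of Aldoc was lost without the block by mouse (adjusted p = 0.156), by library totals (0.0638) and DESeq2 (0.146), with the unpaired DG library of mouse 17-192 added and no block (0.179) and without mouse 17-157 or 17-173 (adjusted p = 0.0907 and 0.139). Ermn and Itm2a were not called by DESeq2 (adjusted p = 0.125 and 0.224). Ermn also lost its call without 16-490 or 17-157 (adjusted p = 0.0983 and 0.073) and Itm2a without 16-357 or 16-490 (adjusted p = 0.366 and 0.0697). The part of these cells in the ribosomal, immediate early gene and other results was not tested.

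Kl, which encodes klotho and is also a choroid plexus gene, was at 38.1, 79.9, 94.9, 85.7 and 85.4 CPM in CA1 PNs and at 12.3, 16.8, 8.84, 29.7 and 19.4 CPM in DGCs (LFC 2.14, SE 0.21, adjusted p = 1.84e-08), while Ttr, the defining choroid plexus transcript, had no count in CA1 PNs and a mean of 0.32 CPM in DGCs. Of the CA2 markers, Rgs14 was at 636, 91.1, 126, 101 and 91.7 CPM in CA1 PNs and at 71.2, 52.8, 62.7, 61.9 and 52.5 CPM in DGCs (LFC 1.35, adjusted p = 0.119; LFC 0.83 and called without mouse 16-357; called with all 5 mice by DESeq2 and limma-voom, adjusted p = 0.0266 and 8.80e-04). Amigo2 was at 299.7, 4.37, 1.79, 1.07 and 0.899 CPM in CA1 PNs and at 11, 9.87, 7.23, 10.5 and 2.28 CPM in DGCs (LFC 1.54, adjusted p = 0.559), and without mouse 16-357 it was called higher in DGCs (LFC -1.74), whereas limma-voom with all 5 mice called it higher in CA1 PNs (LFC 2.90, adjusted p = 0.0103). With all 5 mice, 0 of 5 tested CA2 markers were called by edgeR, 1 in each direction by DESeq2 and 2 higher in CA1 PNs by limma-voom. Without mouse 16-357, edgeR called 4, 1 higher in CA1 PNs and 3 higher in DGCs.

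The difference between the populations was then compared between genotypes, in 5 Ts and 6 2N mice of the ChN diet. Mouse 15-145 entered as 2N by the labels of its CA1 and DG libraries, whereas its CA3 library, not used here, is labelled Ts. Of 16760 genes tested, 0 had a difference in LFC between Ts and 2N mice past the threshold by edgeR (0.0%), by DESeq2 or by limma-voom, and 633 had an unadjusted p under 0.05 (3.78%), with 239 by DESeq2 and 828 by limma-voom. The median SE of a difference in LFC was 0.462 over the genes tested that gave an SE and 0.383 over those of the main comparison. Each SE was computed from the LFC and its test statistic. A call after adjustment needs a difference well above its SE. Differences of this size were therefore not detectable for most genes, and larger ones could also be missed. Without mouse 16-357 6 genes were called, without mouse 15-145 or 17-173 2 each, and without mouse 17-21 1. App had a difference of -0.40 (Ts minus 2N, unadjusted p = 0.0035), which did not pass the adjustment. The contrast also did not differ past the threshold between the 5 ChN and the 9 ChP Ts mice, with 0 of 17634 genes called by edgeR (0.0%) or limma-voom and 1 by DESeq2, 500 at an unadjusted p under 0.05 (2.84%) and a median SE of 0.442. A missed threshold does not show that the populations differ alike in these groups.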

How the data were processed

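The authors made the libraries with the SMARTer Stranded Total RNA-Seq Pico kit, aligned reads with STAR and deposited RSEM expected counts per gene, which split reads between near-identical genes, and TPM values of the same files, which RSEM scaled by gene length and library; the TPM were used only to order levels of different genes. The submitters' processing notes name FastQC 0.11.9, Trimmomatic 0.39, Picard 2.26.2 and both GRCm39 and mm10, while the study's methods name GRCm39. Of the expected counts, 0.8337% were not whole and all were rounded. Identifiers (57010) were matched to GENCODE vM39 (56310 with a symbol), which gave the GRCm39 coordinates.

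Genes with at least 1 CPM in 5 libraries were fitted with edgeR 4.0.16 in R 4.3.3 (TMM, robust quasi-likelihood test, two-sided, Benjamini-Hochberg adjustment over all genes tested, call at an adjusted p under 0.05), with the mouse as a block. The labels give the mouse of each library, and the residuals of the libraries of 1 mouse correlated at 0.048 to 0.108, against a median of -0.026 between mice. Each population was centered on its mean over the 5 mice. A value above 0 within mice then brings one below 0 between mice, so the latter is no independent baseline. The labels mark the mice as separate animals. Genotype and diet differences were interaction terms of the same model in the ChN Ts and 2N mice and in the ChN and ChP Ts mice, and the 9 ChP Ts mice were fitted alone by the main design. The other covariates of the study's models and its CA3 libraries were not used here, and 0 columns were without a sample.

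The members and gene lists were chosen with earlier results of these data known. Genes named were the markers and App, Dyrk1a and Sod1, the 10 protein-coding genes with the largest LFC in each direction (called, same direction in 5 mice, at least 50 CPM in the higher population), up to 4 called genes of a list in each direction by LFC with at least 10 CPM, and members of lists that were not called. Members named outside this rule were chosen after their values were seen, namely Mpped1, Man1a, Gria1, Arc, Npas4, Fos, Junb, Cck, Grm4, Sh3bgr, Scaf8, Vip, Lhx6, Ermn and Olig1. A gene at 0 in one population was set to 3 counts over its 5 libraries for a lower bound, and genes with 1 to 3 counts there have a ratio with a 95% counting interval, which covers counting error only. The ratio is not printed for every such gene. Alternatives were no block, library totals, RLE factors, DESeq2 1.42.0, limma-voom 3.58.1, other filters (more than 0.1 CPM in 10 libraries, filterByExpr, none), leaving out each mouse, and adding the DG library of mouse 17-192. Some members of the lists are counted but not reported here. The scripts were tested on simulated counts. Promoter sequences are RefSeq GRCm38.p6.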

Additional observations from a re-analysis of the deposited data

Results flagged for a closer look

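Of 370 groups of 5 values (each named gene and each marker list in either population), 67 held a sample whose gap to the nearest other value exceeded the critical share of the range, where chance gives about 5% of groups. The CA1 library of mouse 16-357 gave 45 of them, and no cause was tested. It was the lowest of the CA1 libraries, far from the others, for Mpped1 (102 CPM), Pou3f1 (86.9 CPM), Htr1b (24.8 CPM), Gria1 (1721 CPM), Grik2 (45.5 CPM), Kcnh7 (179 CPM), Atp2b1 (2021 CPM), Prkcb (341 CPM) and Cntnap2 (146 CPM). The same held for Dusp6 (80.3 CPM), Nr4a1 (132 CPM) and Kl (38.1 CPM). It was the highest of the CA1 libraries, far from the others, for Il16 (179.6 CPM), Pcp4 (275 CPM), Amigo2 (299.7 CPM), Rgs14 (636 CPM), Sv2b (1005 CPM), Nptx2 (143 CPM), Shisa9 (33.9 CPM), Neto1 (72.8 CPM) and Grik4 (29.8 CPM). The same held for Cacna1c (214 CPM), Camk4 (212 CPM), Prkca (1382 CPM), Rasgrf2 (53.8 CPM), Sema5a (38.1 CPM), Lrrtm4 (29.8 CPM), Drd1 (0.828 CPM), Hapln4 (416 CPM) and Col6a1 (0.828 CPM). The same held for Smoc2 (9.93 CPM), Tiam1 (105 CPM), Gad1 (247 CPM), Erbb4 (135 CPM), Sst (46.4 CPM), Pvalb (26.5 CPM), Itm2a (24.8 CPM) and mt-Cytb (1688 CPM). Among marker lists, its sums stood apart for CA1 pyramidal markers (663 CPM), dentate granule markers (224 CPM), CA2 markers (1573 CPM), CA3 markers (421 CPM), inhibitory neuron markers (776 CPM), oligodendrocyte markers (345 CPM) and choroid plexus markers (38.1 CPM).

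In mouse 16-490, the DG library was highest for Pou3f1 (0.581 CPM) and Thsd4 (1.16 CPM), and lowest for mt-Cytb (1322 CPM). In mouse 17-157, the CA1 library was highest for Lefty1 (51.4 CPM), Slc1a2 (723 CPM) and Jund (96.5 CPM). In mouse 17-173, the CA1 library was highest for C1ql2 (0.899 CPM), Plk5 (0.899 CPM) and Glis3 (0.899 CPM). In mouse 16-357, the DG library was highest for Sv2b (2.74 CPM), Ccn3 (0.684 CPM) and Grin1 (605 CPM). In mouse 16-490, the CA1 library was highest for Grm2 (0.624 CPM). In mouse 17-173, the DG library was highest for Grin2a (1231 CPM), Drd1 (24 CPM), Serac1 (51.4 CPM) and Sst (1.14 CPM), and lowest for Rps4x (34.2 CPM). In mouse 17-153, the DG library was lowest for Shisa6 (121 CPM). In mouse 17-157, the DG library was highest for Grm4 (7.24 CPM) and Slc1a2 (895 CPM), and apart in its sum of astrocyte markers (1121 CPM). Values near 1 CPM or below here rest on 1 or 2 counts in an otherwise empty group.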

How the results depend on the processing

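Depth (837456 to 1671295 counts a library) limits low genes, and genes with 3 or fewer counts in a population are given as ratios or bounds, or with their counts or low mean only. The CA1 library of mouse 16-357 limits values of CA2, CA3 and dentate genes. Of 4801 genes called by edgeR, the number was 3181 by DESeq2 (1645 higher in CA1 PNs and 1536 higher in DGCs), and leaving out each mouse gave 3938 to 5139, the last without mouse 16-357. Without the replicate block, that is without pairing by mouse, 4628 genes were called, and no count over all genes moved by over 1.5 times. Among the lists, calls higher in CA1 PNs went from 2 to 1 for metabotropic receptors, from 1 to 0 for astrocyte markers and from 0 to 1 for mitochondrially encoded subunits, and in the 9 other mice from 1 to 4 for CA2 markers, while calls higher in DGCs went from 4 to 2 for astrocyte markers and from 1 to 2 for microglia markers and for amyloid and tau genes. Of the genes named, Grm4, Vip and Aldoc lost their call without the block. With filterByExpr (at least 10 counts), which tests fewer low genes, 776 genes were higher in DGCs at a fold of 2 or more against 1168. Library totals in place of TMM gave 2075 genes higher in CA1 PNs and 2844 higher in DGCs against 2496 and 2305, and in the 9 other mice 2266 and 3996 against 3108 and 2862.

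The genotype difference, with 0 genes called, had 14 without a filter and 0 to 6 when each mouse was left out, and the diet difference, with 0, had 1 by DESeq2, 1 without a filter and 0 to 0 when each mouse was left out. The cause was not tested. Amigo2 reversed from an LFC of 1.54 to -1.74 without mouse 16-357, and had -1.74 to 2.28 when each mouse was left out. Of 172 genes named, 152 kept their call in every alternative, and 2272 of 2337 values were on the same side of the threshold with the same direction. Of 1062 counts over the lists, 972 were within 1.5 times. The study's filter, which needs a value in all 10 libraries and so drops genes at 0 in one population, left 3 of 9 dentate marker calls, 9 of 14 immediate early genes higher in CA1 PNs and 14 of 23 receptors of neuromodulators and neurotrophins, and DESeq2 called 8 of 13 triplicated chromosome 16 genes higher in CA1 PNs.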
